A study of Mus musculus with 9 samples.

Results

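The genes described here encode 31 enzymes that make serine, carry folate-bound carbon units and build, reduce or salvage nucleotides, and 30 of them were measured among 19938 genes in all. They were chosen by name from textbook pathway maps with earlier results of these data known, so the list was not picked blind to them. Each gene was read from 1 probe set, the one with the highest mean over 9 arrays. Impdh2, an inosine monophosphate dehydrogenase, had no probe set naming it alone in the probe table used here. Tk1 had 2 probe sets and every other measured enzyme had 1. Expression was measured on Affymetrix mouse gene arrays in low-density bone marrow cells, the light marrow fraction that holds blood progenitors, from pooled marrow of Balb/c mice. All 3 groups had first been grown for 4 days with stem cell factor (SCF) and FLT3 ligand (FLT3L) at 100 ng/mL. The group before IL-5 was taken at that point, and the others after 4 or 10 days of IL-5, the cytokine that drives eosinophil formation, with 3 arrays in each group. The labels used here give neither the age of the mice nor the IL-5 concentration. They do not say that the 3 arrays of a group came from separate cultures, so the p-values reflect how far these samples differ from each other, and that spread may be technical only. No culture kept without IL-5 for the same time is analysed here, so IL-5 and days in culture cannot be told apart.

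Dividing cells must copy their DNA and transcribe ribosomal RNA, and both need nucleotides. Purine rings are assembled on phosphoribosyl pyrophosphate (PRPP) to give inosine monophosphate (IMP), while pyrimidine rings are made by a separate route to uridine monophosphate. Serine gives its side-chain carbon to folate, and that carbon is built into purines and thymidylate. Ribonucleotide reductase then turns ribonucleotides into the deoxy forms used for DNA, and salvage enzymes return free bases and nucleosides to the pools.

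The labelled cell type was checked against marker lists, whose mean log2 signal per array is given as a range over the 3 arrays of a group. The 8 eosinophil markers, such as Epx and Ccr3, went from 7.14 to 7.35 before IL-5 to 10.25 to 10.39 at day 4 and 12.36 to 12.40 at day 10. Markers of other cells moved as well. The 9 measured erythroid markers went from 7.89 to 7.98 before IL-5 to 5.30 to 5.50 and 5.31 to 5.42 at the later days, and the 8 B cell markers from 7.97 to 8.12 to 5.98 to 6.19 and 5.07 to 5.28. The 6 stem and progenitor markers measured went from 8.44 to 8.48 before IL-5 to 7.0 to 7.11 and 6.77 to 6.85. Monocyte and macrophage markers spread widely among the day 10 arrays, from 8.61 to 9.52, after 7.22 to 7.35 before IL-5 and 9.69 to 9.82 at day 4. Neutrophil markers stood at 10.01 to 10.23, 10.96 to 11.02 and 8.76 to 9.59 in the same order. At day 10 against before IL-5, 3 of 10 neutrophil markers had risen and 4 fallen. Of 9 monocyte and macrophage markers 6 had risen and 2 fallen (4.83% and 9.4% of all genes). Dendritic cell markers stood at 7.05 to 7.14, 8.56 to 8.66 and 6.07 on all day 10 arrays, and mast cell and basophil markers at 7.90 to 8.05, 7.62 to 7.78 and 6.51 to 6.87. Megakaryocyte markers stood at 8.43 to 8.55, 8.29 to 8.45 and 8.32 to 8.79. T and NK cell markers stood at 5.66 to 5.74 before IL-5, lower at 4.98 to 5.02 at day 4, and at 5.68 to 5.90 at day 10, where 2 of 7 had risen and 3 fallen against before IL-5. These arrays measured bulk RNA of mixed cultures, so fewer cells of a type and less RNA per cell cannot be told apart.

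Signals of the nucleotide, folate and serine enzymes went down in steps across the culture, and none of the 30 rose by the test. Genes with an adjusted p in limma under 0.05 and a change of 2-fold or more are called fallen or risen. At day 4 against before IL-5, 14 of 30 fell, against 2.11% of all genes. At day 10 against before IL-5, 24 of 30 fell, against 9.4% of all genes. Between day 4 and day 10 only Ppat and Umps fell, 2 of 30 against 3.98% of all genes, although 22 were lower by adjusted p alone, as were 20.2% of all genes. By adjusted p alone 25 were lower at day 4 and 26 at day 10, against 20% and 27.6% of all genes. Aprt was the 1 enzyme higher by that rule, at day 10 against both earlier groups (14.8% and 11.7% of all genes), and 0 were higher at day 4 (11.5%). The median log2 change of the 30 was -0.98 by day 4 and -1.58 by day 10, against -0.11 and -0.07 over all genes. From day 4 to day 10 it was -0.66, against 0.02. The 14 that fell at day 4 also fell at day 10, a further 10 passed at day 10 only, and 6 passed in no comparison, namely Psph, Mthfd2, Impdh1, Ctps2, Aprt and Dck. Arrays at day 4 lay wholly below those before IL-5 for 25 of the 30 (28.3% of all genes), and at day 10 for 26 (31.7% of all genes). Day 10 arrays lay wholly below those of day 4 for 23 (25% of all genes). Without day 10 replicate 1, Tyms no longer passed at day 10 and 23 fell.

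**Figure D1:**
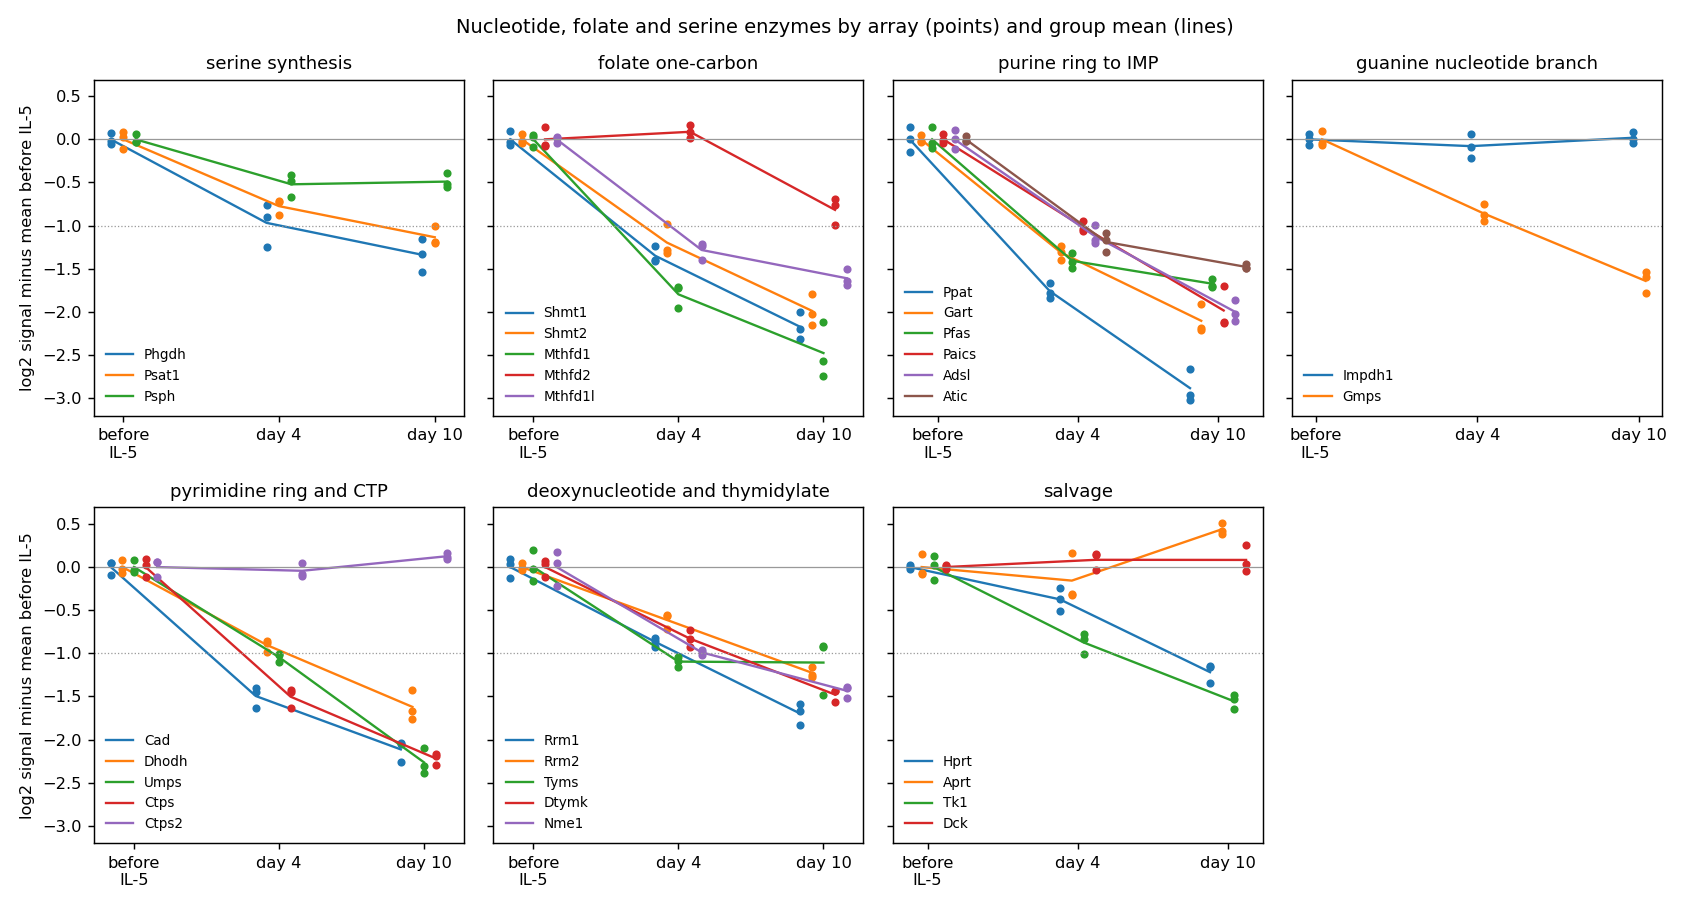
Log2 signal of each enzyme minus its own mean before IL-5 (vertical axis), by time of IL-5 (horizontal axis), with 1 point per array, a line through the 3 group means, and 1 panel per role. The dotted line marks a 2-fold fall. Most lines go down at both steps, while Impdh1, Ctps2 and Dck stay near 0 and Mthfd2 leaves 0 only at day 10.

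Promoter sequence was looked at because so many of these genes moved together. RefSeq promoter windows (GRCm38.p6, 250 bases before to 50 after each annotated start, 35 windows) were found for 29 of the 31 enzymes. They were searched on both strands for CACGTG, the E-box bound by MYC-type factors, for TTTGGCG or TTTCCCG or else TTTCGCG, forms of the E2F site, for TGATGCA and TGATGAA, forms of the site of C/EBP and ATF factors, and for CCAAT. The E-box was present in 7 of 35 windows (20%), against 7.15% of all 32851 promoter windows of the same length. Those 7 windows belong to Paics, Atic, Impdh2, Tyms, Dtymk and Nme1, the last with 2. An E2F form was found in 1 window (2.86%, against 5.58% of all), that of Ppat, and a C/EBP and ATF form in 1 (2.86%, against 6.44%), that of Mthfd2. CCAAT was in 14 of 35 (40.0%, against 37.4%). Motifs of different kinds overlapped in 0 windows. A match is a description of letters and not a bound site.

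The 250 bases before the start of 4 genes are printed 5′ to 3′ on the gene's own strand, with the E-box, E2F and C/EBP and ATF letters in capitals, since they hold these motifs and their genes took different courses. They are Ppat (chr5:76951579-76951828, minus strand), Atic (chr1:71556906-71557155, plus strand), Tyms (chr5:30073626-30073875, minus strand) and Mthfd2 (chr6:83317605-83317854, minus strand). Counted back from the annotated start, the E2F letters of Ppat begin at -210 and -157 and read as the reverse complement of TTTCCCG. The E-box begins at -7 in Atic and at -61 in Tyms, and the TGATGAA of Mthfd2 at -185.
Ppat: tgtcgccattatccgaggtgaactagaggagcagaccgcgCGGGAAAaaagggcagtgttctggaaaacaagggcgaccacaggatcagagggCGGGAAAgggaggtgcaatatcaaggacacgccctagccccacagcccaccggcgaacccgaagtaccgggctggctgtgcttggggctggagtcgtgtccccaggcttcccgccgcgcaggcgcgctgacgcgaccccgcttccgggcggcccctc
Atic: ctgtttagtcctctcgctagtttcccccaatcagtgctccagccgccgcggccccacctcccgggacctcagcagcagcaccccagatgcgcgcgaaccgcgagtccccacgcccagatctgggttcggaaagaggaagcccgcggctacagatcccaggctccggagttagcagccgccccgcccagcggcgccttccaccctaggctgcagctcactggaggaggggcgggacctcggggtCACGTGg
Tyms: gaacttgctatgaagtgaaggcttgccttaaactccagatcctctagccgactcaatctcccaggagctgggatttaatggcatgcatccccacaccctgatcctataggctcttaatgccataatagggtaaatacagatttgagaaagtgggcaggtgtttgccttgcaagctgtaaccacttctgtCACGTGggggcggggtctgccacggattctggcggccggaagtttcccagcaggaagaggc
Mthfd2: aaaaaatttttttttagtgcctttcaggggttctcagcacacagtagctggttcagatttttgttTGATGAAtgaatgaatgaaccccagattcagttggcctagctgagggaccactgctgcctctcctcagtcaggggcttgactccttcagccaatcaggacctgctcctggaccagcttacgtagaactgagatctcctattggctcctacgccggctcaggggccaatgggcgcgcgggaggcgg
Ppat and Paics, which open and continue the same purine route, are neighbours on opposite strands whose annotated starts lie 276 bases apart, each within the span of the other.

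In serine synthesis Phgdh and Psat1 fell by day 10 while Psph passed in no comparison. Phgdh, the dehydrogenase that draws serine from glycolysis, read 8.17, 8.26 and 8.13 in the 3 arrays before IL-5, then 7.29, 6.94 and 7.43 at day 4 and 6.86, 6.64 and 7.04 at day 10. The arrays before IL-5 were the highest, and those of the later days overlapped. Its log2 change was -0.97 at day 4 (SE 0.14, adjusted p = 0.000131), just short of 2-fold, and -1.34 at day 10 (SE 0.14, adjusted p = 2.95e-06). Without day 4 replicate 1 or 3, Phgdh passed at day 4, at -1.0 and -1.07. The aminotransferase Psat1 went from 10.51 ± 0.10 (SD, as for all values given with ±) before IL-5 to 9.73 ± 0.093 and 9.37 ± 0.11, with changes of -0.77 and -1.13 (adjusted p = 1.12e-06 at day 10). The phosphatase Psph, which releases free serine, stood at 7.84 ± 0.051, 7.32 ± 0.14 and 7.35 ± 0.085. Its changes of -0.52 and -0.49 were larger than the spread between arrays (adjusted p = 0.00155 and 0.00144) but under 2-fold, and day 10 differed from day 4 by 0.03.

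Of the 5 folate enzymes, 4 fell at day 4 and the same 4 at day 10, while Mthfd2 passed in no comparison. Mthfd1, the cytosolic enzyme that carries 3 folate activities, had the largest fall of the 5. It read 9.63, 9.77 and 9.74 before IL-5, 7.99, 8.0 and 7.75 at day 4, and 6.97, 7.14 and 7.60 at day 10. The groups did not overlap, and the day 10 arrays were the most spread. The change was -1.80 at day 4 (adjusted p = 1.39e-06) and -2.48 at day 10 (SE 0.15, adjusted p = 2.25e-08), a 5.57-fold fall. Shmt1, the cytosolic serine hydroxymethyltransferase that moves carbon from serine to folate, went from 8.46 ± 0.082 to 7.11 ± 0.094 and 6.28 ± 0.16, with changes of -1.35 and -2.17 (adjusted p = 5.25e-09 at day 10). Its mitochondrial counterpart Shmt2 went from 9.61 ± 0.054 to 8.41 ± 0.18 and 7.62 ± 0.18, with changes of -1.20 and -1.99 (adjusted p = 3.1e-08 at day 10). Mthfd1l, which releases formate from mitochondria, fell by 1.28 on the log2 scale at day 4 and by 1.61 at day 10, most of it before day 4.

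Mthfd2, the mitochondrial dehydrogenase and cyclohydrolase of the same route, read 8.79, 9.0 and 8.79 before IL-5 and 9.03, 8.95 and 8.87 at day 4. These arrays overlapped, and the change was 0.09 (SE 0.11, adjusted p = 0.598). At day 10 it read 7.87, 8.09 and 8.17, below every earlier array. Day 10 differed from day 4 by -0.91 (SE 0.11, adjusted p = 3.57e-05) and from before IL-5 by -0.82 (adjusted p = 3.81e-05), both short of 2-fold. The printed window of Mthfd2 holds TGATGAA, and a C/EBP and ATF form was found in 2.86% of the enzymes' windows against 6.44% of all. Atf4, one of the ATF factors, differed from before IL-5 by 0.13 at day 4 and 0.17 at day 10 without passing. Atf4 was named after its values were seen, and any link between Atf4 and Mthfd2 was not tested.

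All 6 enzymes that assemble the purine ring fell at day 4 and again against before IL-5 at day 10. Ppat, the amidotransferase that commits PRPP to purine synthesis, fell the furthest of the 30 from before IL-5 to day 10, while Mthfd1 fell further by day 4 and Umps between the days. It read 10.21, 10.49 and 10.36 before IL-5, 8.51, 8.69 and 8.57 at day 4, and 7.39, 7.32 and 7.69 at day 10. No arrays of different groups overlapped. The change was -1.76 at day 4 (SE 0.12, adjusted p = 3.33e-07) and -2.88 at day 10 (SE 0.12, adjusted p = 1.15e-09), a 7.38-fold fall that ranked 38 among 19938 genes ordered from the largest fall. Between the days it fell by a further 1.12 on the log2 scale (adjusted p = 1.2e-05).

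Gart, which carries 3 activities of the middle of the route, went from 10.54 ± 0.041 to 9.23 ± 0.081 and 8.44 ± 0.17, with changes of -1.31 and -2.10. Adsl, the lyase used in both the IMP and the AMP routes, went from 10.00 ± 0.11 to 8.88 ± 0.11 and 8.0 ± 0.12, with changes of -1.12 and -2.0. Paics, the neighbour of Ppat, read 12.48, 12.44 and 12.54 before IL-5, 11.54, 11.45 and 11.42 at day 4, and 10.37, 10.36 and 10.78 at day 10. Its groups did not overlap, and replicate 3 was the highest at day 10. Paics changed by -1.02 at day 4 and -1.98 at day 10, and at day 4 it lay close to the 2-fold limit. It stood at -0.99 when replicate 3 from before IL-5, or replicate 3 of day 4, was left out. Without day 10 replicate 3, Paics also passed between the days, at -1.11.

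The last 2 purine members made most of their fall before day 4. Pfas, the synthase that adds nitrogen from glutamine, went from 9.73 ± 0.13 to 8.33 ± 0.090 and 8.06 ± 0.046, so that its change of -1.41 at day 4 was 84.1% of that at day 10 (-1.67). Atic, which closes the ring to IMP, read 11.01, 11.07 and 11.01 before IL-5, 9.86, 9.95 and 9.72 at day 4, and 9.54, 9.58 and 9.54 at day 10. Its arrays were the tightest of the 6 at day 10, and the change of -1.19 at day 4 was 80.4% of the -1.48 at day 10. For Paics, Adsl, Ppat and Gart the share reached by day 4 was lower, between 51.3% and 62.4%. That share is a ratio of 2 differences on the log2 scale that share the arrays before IL-5, and it was not tested.

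In the guanine branch Gmps fell and Impdh1 passed in no comparison. Gmps, the synthetase that makes guanosine monophosphate, went from 10.38 ± 0.090 to 9.53 ± 0.099 and 8.74 ± 0.13, with changes of -0.86 at day 4 and -1.64 at day 10 (adjusted p = 4.53e-08). Impdh1, 1 of the 2 IMP dehydrogenases, read 7.67, 7.60 and 7.72 before IL-5, 7.58, 7.73 and 7.44 at day 4, and 7.67, 7.75 and 7.63 at day 10. The 3 groups overlapped, with changes of -0.08 and 0.02 (SE 0.10, adjusted p = 0.608 and 0.912). Impdh2 was not analysed here, so the dehydrogenase step is covered by Impdh1 only.

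Of the 5 pyrimidine enzymes Cad, Umps and Ctps fell at day 4, Dhodh joined them at day 10, and Ctps2 passed in no comparison. Cad, the fused enzyme that opens pyrimidine synthesis, read 9.12, 9.26 and 9.26 before IL-5, 7.82, 7.76 and 7.58 at day 4, and 7.17, 7.16 and 6.96 at day 10. The groups did not overlap, and the changes were -1.5 and -2.11 (SE 0.11, adjusted p = 5.63e-09 at day 10). Dhodh, the mitochondrial dehydrogenase of the route, went from 7.81 ± 0.079 to 6.90 ± 0.069 and 6.19 ± 0.17, with changes of -0.91 and -1.62. Umps, which finishes uridine monophosphate, read 9.98, 10.12 and 10.00 before IL-5, 9.01, 9.03 and 8.93 at day 4, and 7.65, 7.73 and 7.93 at day 10. On the log2 scale Umps fell more between the days (-1.22, SE 0.10, adjusted p = 1.42e-06) than by day 4 (-1.04, SE 0.10). The size of that contrast was not tested. After quantile normalization Umps and Paics stood at -0.98 at day 4, short of 2-fold.

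Ctps and Ctps2, the synthetases that turn UTP into CTP, took different courses. Ctps read 8.61, 8.75 and 8.82 before IL-5, 7.28, 7.30 and 7.10 at day 4, and 6.44, 6.56 and 6.54 at day 10, with a change of -2.22 at day 10 (SE 0.10, adjusted p = 2.58e-09). Ctps2 read 8.63, 8.62 and 8.46, then 8.47, 8.62 and 8.49, then 8.69, 8.66 and 8.74. Ctps stood below its start on every later array, while the Ctps2 means differed from it by -0.04 at day 4 and 0.13 at day 10 (adjusted p = 0.777 at day 4 and 0.337 at day 10). Every day 10 array of Ctps2 lay above every earlier one, as it did for Aprt, though Ctps2 passed in no comparison. Day 10 arrays lay wholly above an earlier group for 2 of the 30 enzymes, against before IL-5 and against day 4 alike. Over all 19938 genes they did so for 3593 against before IL-5 and 3829 against day 4.

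Of the 5 deoxynucleotide enzymes Tyms alone fell at day 4, and all 5 had fallen by day 10. Rrm1, the large subunit of ribonucleotide reductase, went from 11.59 ± 0.11 to 10.72 ± 0.054 and 9.89 ± 0.12, with changes of -0.87 and -1.70. Its small S-phase partner Rrm2 read 10.91, 10.89 and 10.96 before IL-5, 10.35, 10.36 and 10.20 at day 4, and 9.67, 9.76 and 9.65 at day 10. The steps of Rrm2 were even on the log2 scale, -0.61 to day 4 and -0.61 between the days. Dtymk, the kinase that phosphorylates thymidylate, differed from before IL-5 by -0.83 and -1.48, and Nme1, a nucleoside diphosphate kinase, by -0.99 and -1.43. Nme1 lay at the 2-fold limit at day 4 and passed at -1.10 without replicate 3 before IL-5 and at -1.0 with day 4 replicate 2 left out. Nme1 and Nme2 are close copies that array probes can mix, so their separation is uncertain, and Nme2 stood at -0.50 and -1.05.

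Tyms, the thymidylate synthase, reached its day 10 signal by day 4. It read 8.51, 8.87 and 8.64 before IL-5, 7.59, 7.52 and 7.63 at day 4, and 7.19, 7.76 and 7.75 at day 10. Day 10 replicate 1 was the lowest array, and the other 2 lay above every day 4 array. The change was -1.10 at day 4 (SE 0.15, adjusted p = 0.000103) and -1.11 at day 10 (adjusted p = 3.93e-05), and the days differed by -0.01. At day 10 Tyms stood at -0.92 when day 10 replicate 1 was left out and at -0.96 on quantile-normalized signals. It lay just under 2-fold at day 4 without replicate 2 before IL-5.

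Among the salvage enzymes Hprt and Tk1 fell by day 10, and Aprt and Dck did not pass. Hprt, which salvages hypoxanthine and guanine, read 10.45, 10.40 and 10.42 before IL-5, 9.91, 10.05 and 10.17 at day 4, and 9.07, 9.26 and 9.28 at day 10. Only 30.7% of its log2 change at day 10 (-1.22) was present at day 4 (-0.37), the smallest share among the 24 that fell. Tk1, the cytosolic thymidine kinase of S phase, differed from before IL-5 by -0.88 and -1.56 on the probe set used, and by -0.77 and -1.67 on its other probe set.

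Aprt, the adenine phosphoribosyltransferase, stood higher at day 10 by adjusted p, short of 2-fold. It read 8.06, 8.28 and 8.06 before IL-5, 7.82, 8.29 and 7.81 at day 4, and 8.65, 8.55 and 8.52 at day 10. Every day 10 array lay above every earlier one. The difference from before IL-5 was 0.44 (SE 0.13, adjusted p = 0.0166) and from day 4 0.60 (SE 0.13, adjusted p = 0.00366), a 1.51-fold difference. Dck, the deoxycytidine kinase, read 9.07, 9.10 and 9.12, then 9.06, 9.24 and 9.24, then 9.14, 9.05 and 9.35, with overlapping groups and a change of 0.08 at both days (SE 0.11, adjusted p = 0.594 and 0.583).

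**Figure D2:**
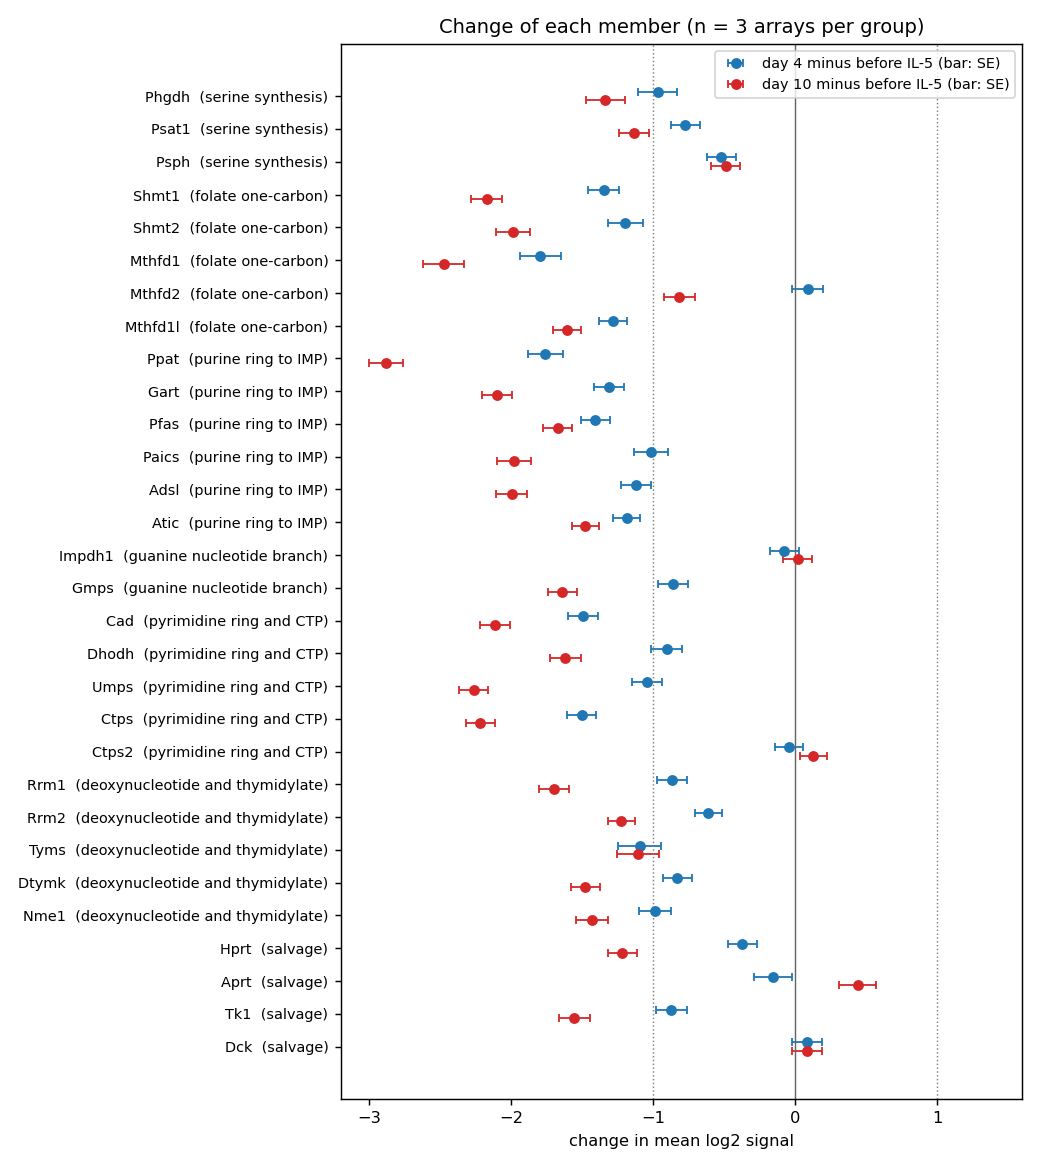
Change in mean log2 signal (horizontal axis) of each of the 30 enzymes (vertical axis, role in brackets) at day 4 and at day 10 against before IL-5, with bars for the standard error from limma and 3 arrays per group. Dotted lines mark 2-fold. Ppat lies furthest left at -2.88, and Impdh1, Ctps2, Aprt and Dck sit at or above 0 at day 10.

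Enzymes of like activity were then set side by side in 6 pairs, as the difference between their log2 changes within arrays. An exact two-sided permutation test of 3 arrays against 3 can give no p below 0.10, so these differences are descriptions. After adjustment over the 18 tests, the p-values of 0.10 became 0.164 here. For Ctps minus Ctps2 the difference was -1.46 at day 4 and -2.34 at day 10, with no overlap of arrays (exact p = 0.10 each). For Tk1 minus the mitochondrial kinase Tk2 it was -1.16 and -2.50, again with no overlap (exact p = 0.10 each). Tk2 read 7.49, 7.33 and 7.45 before IL-5, 7.70, 7.85 and 7.57 at day 4, and 8.23, 8.39 and 8.48 at day 10, a change of 0.94 at day 10 (adjusted p = 9.51e-06) that stayed short of 2-fold.

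Rrm2 and Rrm2b, the stress-inducible small subunit of the reductase, parted only later. Their difference was -0.21 at day 4, where arrays overlapped (exact p = 0.40), and -1.10 at day 10, where they did not (exact p = 0.10), with Rrm2b at -0.12 at day 10. In the folate route the cytosolic Mthfd1 lost more signal than the mitochondrial Mthfd1l, by 0.51 at day 4 and 0.87 at day 10 with no overlap (exact p = 0.10 each). For Shmt2 minus Shmt1 the arrays overlapped, with differences of 0.15 and 0.19 (exact p = 0.50 and 0.20). For Dck and the mitochondrial Dguok the differences were 0.10 and 0.14 (exact p = 0.60 and 0.40). These last p-values do not show that the pairs behaved alike.

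**Figure D3:**
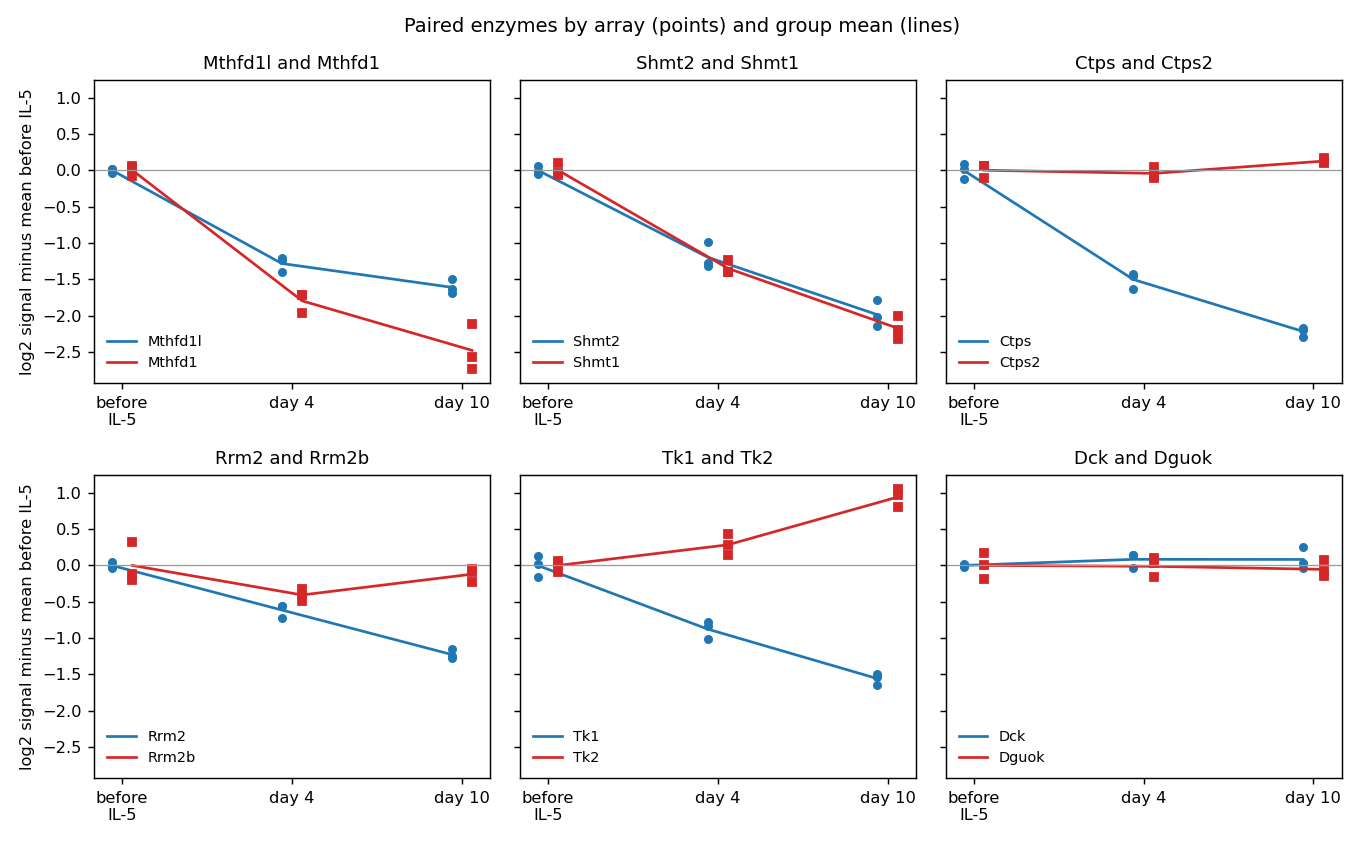
Log2 signal minus the gene's own mean before IL-5 (vertical axis) for 6 pairs of enzymes by time (horizontal axis), with 1 point per array and a line through the group means. Ctps leaves Ctps2, and Tk1 leaves Tk2, by day 4, Rrm2 leaves Rrm2b by day 10, and the points of Shmt1 and Shmt2 overlap when set against before IL-5.

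A wider list of 109 genes around these pathways was chosen by function, and 98 were measured. At day 4, 10 fell and 4 rose (2.11% and 3.42% of all genes). At day 10 against before IL-5, 28 fell and 7 rose (9.4% and 4.83%), and between the days 6 fell and 3 rose (3.98% and 2.44%). Their median change was -0.24 at day 4 and -0.37 at day 10. The 5 largest falls at day 4 were in Dut (-1.41), which removes dUTP, the regulators Myc (-1.24) and Mycn (-1.22), Dctd (-1.18), which feeds thymidylate synthesis, and the mitochondrial transcription factor Tfam (-1.07). Folr2 (1.80), a folate receptor of macrophages, Cmpk2 (1.56), an interferon-inducible mitochondrial kinase, Samhd1 (1.34), which hydrolyses deoxynucleotide triphosphates, and Xdh (1.34), the xanthine dehydrogenase, rose.

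At day 10 the falls included genes that supply PRPP and folate. The folate carrier Slc19a1 read 8.86, 8.52 and 8.78 before IL-5, 7.53, 7.80 and 7.61 at day 4, and 6.53, 6.5 and 6.59 at day 10, a change of -2.18 (adjusted p = 7.78e-09). Of the PRPP synthetases, Prps2 changed by -2.14 and Prps1 by -1.95, and Dut by -2.05. Myc, a transcription factor known to drive many nucleotide synthesis genes, read 10.65, 10.70 and 10.57 before IL-5, 9.34, 9.56 and 9.31 at day 4, and 8.35, 8.55 and 8.37 at day 10. Its change was -2.22 (SE 0.11, adjusted p = 3.56e-09), and Mycn fell by 1.39. By function, and against 9.4% of all genes, the day 10 falls were 5 of 9 methionine cycle genes measured, 6 of 16 kinases and supply enzymes of pyrimidines and deoxynucleotides, 4 of 14 PRPP and adenine genes, 3 of 12 folate genes, 3 of 13 glycine and serine genes, 4 of 8 regulators and 0 of 7 nucleoside transporters.

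Of the 19 measured genes of nucleotide breakdown, 4 rose and 3 fell at day 10, against 4.83% and 9.4% of all genes, with a median change of 0.05. Upp1, the uridine phosphorylase, read 5.10, 5.38 and 5.29 before IL-5, 5.38, 5.54 and 5.22 at day 4, and 7.85, 8.11 and 7.79 at day 10, a rise of 2.66 (adjusted p = 3.18e-09). Its day 4 arrays overlapped those before IL-5, and all day 10 arrays were higher. Samhd1 read 10.10, 10.21 and 10.02, then 11.40, 11.44 and 11.51, then 12.27, 12.26 and 12.19, above before IL-5 at both days, with a rise of 2.13 by day 10 (adjusted p = 1.84e-09). The 5′-nucleotidase gene Nt5c3 rose by 1.48. Outside the breakdown list, Ampd3, an AMP deaminase, rose by 2.51 to read 9.44, 9.53 and 9.52 at day 10, and Ggh, which strips glutamates from folate, by 1.90. Between the days Upp1 (2.54), Ampd3 (2.17) and Ggh (1.35) rose, and the purine phosphorylase Pnp (-1.48), Prps2 (-1.46), Upb1 (-1.40), the nucleoside transporter Slc29a3 (-1.29) and Slc19a1 (-1.11) fell most.

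Many genes of cell division fell as well. Over all genes 2.11% fell and 3.42% rose at day 4, 9.4% fell at day 10 and 3.98% fell between the days, and the counts that follow are read against these shares. Of 35 DNA replication genes 14 fell at day 4 and 30 at day 10, with medians of -0.89 and -1.63, and of 19 mitosis genes 1 and 14 fell, with medians of -0.67 and -1.23. The 30 enzymes as a whole had medians of -0.98 and -1.58. By role, the purine ring enzymes had medians of -1.25 and -1.99, the deoxynucleotide enzymes -0.87 and -1.43, and the salvage enzymes -0.27 and -0.57. Whether these lists differ from each other was not tested. Of the erythroid, B cell and progenitor markers 8 of 9, 7 of 8 and 6 of 6 fell at day 4. Between the days 3 of 8 B cell and 2 of 6 progenitor markers fell and 1 progenitor marker rose, while 0 of 9 erythroid markers did, with a median change of 0.02. The part of these markers in the falls was not tested. Of 9 monocyte and macrophage markers 7 rose at day 4 and 3 fell between the days. Of 8 dendritic cell markers 4 rose and 6 fell in the same comparisons, and of 10 neutrophil markers 5 and 7. Between the days 1 monocyte and macrophage marker and 1 neutrophil marker rose (2.44% of all genes). Folr2 and Xdh also rose at day 4, and Upb1 and Slc29a3 fell between the days. The part of any of these cells in these changes was not tested. Among the marker lists the 3 day 10 arrays differed most in monocyte and macrophage markers, with means of 8.86, 8.61 and 9.52. Neutrophil markers spread almost as widely, with means of 8.76, 9.09 and 9.59. On the same arrays, in the same order, the 30 enzymes had mean signals of 8.02, 8.08 and 8.16. Those means were 8.58 to 8.66 at day 4 and 9.50 to 9.55 before IL-5. Whether the marker and enzyme signals go together was not tested.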

How the data were processed

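RNA of 9 samples, 3 per group, was measured on Affymetrix mouse gene arrays. The authors deposited log2 signals, made per the labels with the default gene-level RMA of Affymetrix Expression Console 1.1.2637.26569, per the submitters' processing notes. Annotation release and genome build: not given in the sources used here. Of 35557 probe sets, 21789 named 1 gene in the platform annotation, 1621 several and 12147 none. Each of 19938 genes was read from its probe set of highest mean signal, with no filter on low signal. The 3 group means were fitted over 9 arrays with limma 3.58.1 in R 4.3.3 (lmFit, eBayes), with Benjamini-Hochberg adjustment over all genes. A call needed an adjusted p under 0.05 and at least 2-fold. The number of arrays limits the precision.

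Every enzyme of the set was described. From the wider list the text names the 5 largest rises and 5 largest falls past the test in each comparison, the partners in the pairs, Myc and Mycn. Atf4 and Nme2 were chosen after their values were seen. Members and lists were chosen with earlier results of these data known. The full call, with its 2-fold limit, was tried on simulated data of 19938 genes. At day 4 it recovered 96% of planted log2 changes of 1.5. Planted changes of 0.75 lie under the 2-fold limit, so the 5% of them called does not measure the fit. Alternatives were another normalization, a filter on low signal, other thresholds, a replicate block and leaving out each array.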

Additional observations from a re-analysis of the deposited data

How the results depend on the processing

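The count of enzymes that fell from before IL-5 to day 10, 24, stayed within 1.5 times under every alternative run, and no enzyme reversed direction where it was called. Leaving out each array in turn gave 13 to 15 fallen enzymes at day 4, 23 to 24 at day 10 and 2 to 3 between the days. In the wider pathway list it gave 9 to 11, 25 to 28 and 5 to 8 fallen and 4 to 5, 7 to 8 and 3 to 3 risen. With adjusted p alone, 25 enzymes were lower at day 4 and 22 between the days, and 1 was higher at day 10 and 1 between the days. In the wider list of 98 measured genes this gave 40, 50 and 35 lower and 12, 16 and 15 higher, in the order day 4, day 10 and between the days. Over all genes 20%, 27.6% and 20.2% were lower by this rule and 11.5%, 14.8% and 11.7% higher, in the same order. At 1.5-fold, 23 enzymes passed as lower at day 4 and 18 between the days, and 1 passed as higher between the days. The wider list gave 28 lower at day 4 and 17 between the days, with 9, 13 and 10 higher. Shares of all genes at 1.5-fold were not worked out, so these counts stand without a background. Quantile normalization gave 6 fallen genes of the wider list at day 4. The cause of these differences was not tested, beyond the wider threshold that 2 of these settings apply. With the replicate block the counts of fallen enzymes were 14, 24 and 2, as without it. The replicate numbers were not used as pairs in the main fit. Same-numbered arrays deviated from their group means with correlations of -0.12 to 0.077. In both other groups at once, 0 of 9 arrays correlated best with its own number. Arrays within a group were nearly alike (correlations of 0.991 to 0.996), so these small deviations cannot exclude that same-numbered samples were paired. With 3 arrays per group, changes near 2-fold cannot be placed firmly on one side of the limit.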
